A study of Mus musculus with 12 samples.

Results

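The genes described here are 7 members of the mouse MS4A family of membrane proteins, Ms4a4a, Ms4a4b, Ms4a4c, Ms4a6b, Ms4a6c, Ms4a6d and Ms4a7. They were taken by symbol from the 52636 genes of a read count table, and all 7 were found. They were chosen from earlier results of these same data, in which the LL37 comparisons (LL37 against control, and LL37 against LL37 + RAPA) were in view, so the values of both comparisons are given as a description and carry no p. RNA was sequenced from the whole skin of 12 BALB/c mice of a rosacea-like model, 3 independent biological samples in each of 4 groups. All animals were female and 6 to 8 weeks old by the study's methods, and the injected peptide, LL37, is the active fragment of human cathelicidin. The control group consisted of control mice given vehicle. In the control + RAPA group, control mice received rapamycin (RAPA), which blocks the mTORC1 kinase, by intraperitoneal injection at 4 mg/kg per day. The LL37 group had rosacea-like skin after injection of LL37 and was given vehicle, and the LL37 + RAPA group had the same LL37 injections with RAPA. The model is an acute response to an injected peptide in otherwise unmodified mice, and each library mixes every cell of the skin sample.

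MS4A proteins cross the cell membrane several times and sit at the surface or in inner membranes of mostly blood-derived cells, where several of them associate with receptors and change their signalling. The best known members are CD20 on B cells (Ms4a1) and the beta chain of the high-affinity IgE receptor on mast cells and basophils (Ms4a2). Ms4a4a, Ms4a6d and Ms4a7 are known mainly from macrophages, Ms4a6c and Ms4a4c from monocytes and other leukocytes, and Ms4a4b and Ms4a6b were characterised on T cells, the latter also being made by myeloid cells.

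Total counts ran from 15734559 to 23271784 per library, so that 3 counts, the floor used here, corresponded to 0.191 to 0.129 CPM (counts scaled to a common library size, normalised by the trimmed mean of M values). Some libraries stood apart. The summed CPM of 10 neutrophil genes was 252 in LL37 replicate 3, against 1753 and 2443 in the other LL37 libraries. Within the control group, replicate 2 was lowest and replicate 3 highest for 7 of 7 members, and within the LL37 group replicate 1 was highest for 7 of 7. Results that rest on these libraries are given below with and without them. Keratin Krt5, an epidermal marker, lay at 5029 to 8045 CPM as a group mean in all groups.

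The members lie in 1 cluster on chromosome 19, with Ms4a4d between Ms4a6b and Ms4a6d, at chr19:11321039-11604849 of GRCm38, a stretch of 284 kb with 5 genes on the plus strand and Ms4a6d and Ms4a7 on the minus strand. Their sequences fall into close relatives, which matters for reading counts of each one. The first 60 coding bases, from the GENCODE annotation of GRCm38, are shown for both close groups, with capitals at the positions where the genes of a group differ. Among Ms4a6b, Ms4a6c and Ms4a6d 12 of these positions differ.
Ms4a6b: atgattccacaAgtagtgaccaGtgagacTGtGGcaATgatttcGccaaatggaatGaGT
Ms4a6c: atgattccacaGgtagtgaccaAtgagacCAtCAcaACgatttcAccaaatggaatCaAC
Ms4a6d: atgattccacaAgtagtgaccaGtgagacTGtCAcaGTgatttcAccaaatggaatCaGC
Between Ms4a4b and Ms4a4c 5 positions differ.
Ms4a4b: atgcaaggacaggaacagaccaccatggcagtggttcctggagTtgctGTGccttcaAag
Ms4a4c: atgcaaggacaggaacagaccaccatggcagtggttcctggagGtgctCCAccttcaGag
Over the whole coding sequence, Ms4a4b and Ms4a4c were identical at 91.7% of aligned bases, with a longest shared run of 127 bases. Ms4a6b matched Ms4a6c at 86.4% and Ms4a6d at 81.8%. Reads were 100 bases long, and the transcripts were therefore cut into all their 100-base words. Ms4a4b shared 42 of 8871 words and Ms4a4c 29 of 1747, with each other. Ms4a4a, Ms4a6b, Ms4a6d and Ms4a7 shared 0 words with any other gene, so by this measure an exact read of full length fits only its own gene. Ms4a6c shared 45.8% of its words with BE692007, a transcript on the opposite strand of the same place, whose own level ran from 0.813 to 9.53 CPM. The strand setting of the counting was not given in the sources used here, and reads of this pair cannot be told apart without it.

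Promoters, 250 bases before to 50 after the start site, were found in RefSeq (GRCm38.p6) for 6 of the 7 members, and not for Ms4a6d. The promoters of Ms4a4c and Ms4a7 are shown because those genes lay farthest apart between LL37 skin with and without RAPA, and that of Ms4a4b because it is the nearest relative of Ms4a4c. Capitals mark matches to the motifs searched on both strands: the Ets and PU.1 core GAGGAA, the C/EBP motif TTNNGNAA, and the TATA box TATAAA.
Ms4a4c, chr19:11407411-11407710, plus strand: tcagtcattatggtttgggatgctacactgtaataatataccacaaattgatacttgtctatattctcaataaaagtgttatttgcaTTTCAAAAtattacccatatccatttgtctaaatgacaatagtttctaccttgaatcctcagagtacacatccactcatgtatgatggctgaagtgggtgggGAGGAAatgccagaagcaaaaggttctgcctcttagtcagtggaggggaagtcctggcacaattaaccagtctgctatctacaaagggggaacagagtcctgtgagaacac
Ms4a4b, chr19:11443308-11443607, plus strand: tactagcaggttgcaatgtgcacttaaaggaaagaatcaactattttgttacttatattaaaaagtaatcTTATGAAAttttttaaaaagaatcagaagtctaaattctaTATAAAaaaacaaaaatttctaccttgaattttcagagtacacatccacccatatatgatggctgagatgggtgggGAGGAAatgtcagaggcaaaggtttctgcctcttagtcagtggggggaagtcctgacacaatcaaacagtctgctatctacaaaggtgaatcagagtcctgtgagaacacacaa
Ms4a7, chr19:11336097-11336396, minus strand, the first of its 2 listed promoters: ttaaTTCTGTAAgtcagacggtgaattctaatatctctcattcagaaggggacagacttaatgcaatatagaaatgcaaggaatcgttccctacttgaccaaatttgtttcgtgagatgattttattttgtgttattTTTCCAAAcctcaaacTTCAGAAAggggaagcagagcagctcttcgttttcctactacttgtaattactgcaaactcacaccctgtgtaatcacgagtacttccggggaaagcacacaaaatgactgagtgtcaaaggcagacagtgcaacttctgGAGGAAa
Ms4a4b and Ms4a4c were identical at 81.9% of aligned promoter bases, and Ms4a6b and Ms4a6c at 85.3%. The C/EBP motif occurred in 6 of 6 members with a promoter, against 40.7% of 32851 mouse promoters of the same length. GAGGAA occurred in Ms4a4b, Ms4a4c and Ms4a7, against 28.3% of all promoters, and TATAAA in Ms4a4b alone, against 13.6%. The interferon-stimulated response element, written here as GAAA, any 2 bases, GAAA, is held by 3.44% of all promoters and was found in none of the members' windows, both Ms4a7 promoters included. No match overlapped another. These matches describe letters in these windows and nothing more.

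Ms4a6d, a myeloid membrane protein, drew the most reads. Its level was 23.1, 7.84 and 29.8 CPM in control skin, 7.86, 9.88 and 11.45 in control + RAPA skin, 252, 194 and 132 in LL37 skin, and 56.9, 85.1 and 72.2 in LL37 + RAPA skin. All LL37 libraries lay above all others, all LL37 + RAPA libraries lay above both groups without LL37, and control replicate 2 lay just under the lowest control + RAPA library.

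Ms4a4a, a surface protein of alternatively activated macrophages, was measured at 8.79, 3.74 and 12.5 CPM in control skin and 6.24, 11.7 and 9.67 in control + RAPA skin. It lay at 78.1, 72.4 and 45.9 CPM in LL37 skin and at 24.9, 42.9 and 28.4 in LL37 + RAPA skin. The groups without LL37 overlapped fully, and the LL37 + RAPA libraries lay between these and the LL37 libraries, with LL37 replicate 3 (45.9) close to LL37 + RAPA replicate 2 (42.9).

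Ms4a6c and Ms4a6b had the same order of group means as Ms4a6d, at lower levels. Ms4a6c lay at 7.33, 3.08 and 9.11 CPM in control skin, 2.44, 4.69 and 3.34 in control + RAPA skin, 42.8, 30.6 and 31.3 in LL37 skin, and 10.8, 20.7 and 15.0 in LL37 + RAPA skin. Ms4a6b lay at 11.5, 4.15 and 17.7 CPM in control skin, 4.72, 6.86 and 7.25 in control + RAPA skin, 48.9, 38.1 and 42.3 in LL37 skin, and 17.2, 29.9 and 18.7 in LL37 + RAPA skin. For both genes the LL37 libraries stood above every other library, and for Ms4a6b control replicate 3 (17.7) reached into the LL37 + RAPA range.

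Ms4a7, a marker of tissue macrophages, had another order. Its level was 10.1, 6.10 and 13.1 CPM in control skin, 3.04, 2.77 and 2.53 in control + RAPA skin, 63.6, 45.8 and 45.7 in LL37 skin, and 4.27, 7.12 and 6.58 in LL37 + RAPA skin. LL37 + RAPA skin (mean 5.99 ± 1.51 CPM, SD, n = 3) thus lay in and below the control range (9.77 ± 3.52 CPM), and control + RAPA skin lay below every other library.

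Ms4a4c, a close relative of Ms4a4b, lay at 6.04, 1.08 and 15.3 CPM in control skin and at 0.759, 0.840 and 0.576 in control + RAPA skin. It lay at 116, 42.6 and 52.6 CPM in LL37 skin and at 4.89, 5.895 and 11.6 in LL37 + RAPA skin. Control skin spread 14.2-fold between its highest and lowest library, the widest spread of any member in any group, and the LL37 + RAPA libraries lay inside that spread.

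Ms4a4b, known from T cells, was near the limit of detection. It had 12, 4 and 27 counts in control skin, 1, 2 and 1 in control + RAPA skin, 43, 26 and 38 in LL37 skin, and 19, 15 and 14 in LL37 + RAPA skin. In CPM this was 0.205 to 1.42 in control, 0.0542 to 0.0988 in control + RAPA, 1.59 to 2.34 in LL37 and 0.614 to 0.901 in LL37 + RAPA skin. All control + RAPA libraries were under the floor of 3 counts. The other members passed the filter on low counts in each of the 4 groups, whereas Ms4a4b passed it only in LL37 and LL37 + RAPA skin, the groups with LL37, so its presence among the tested genes depended on the libraries where it was high.

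**Figure D1:**
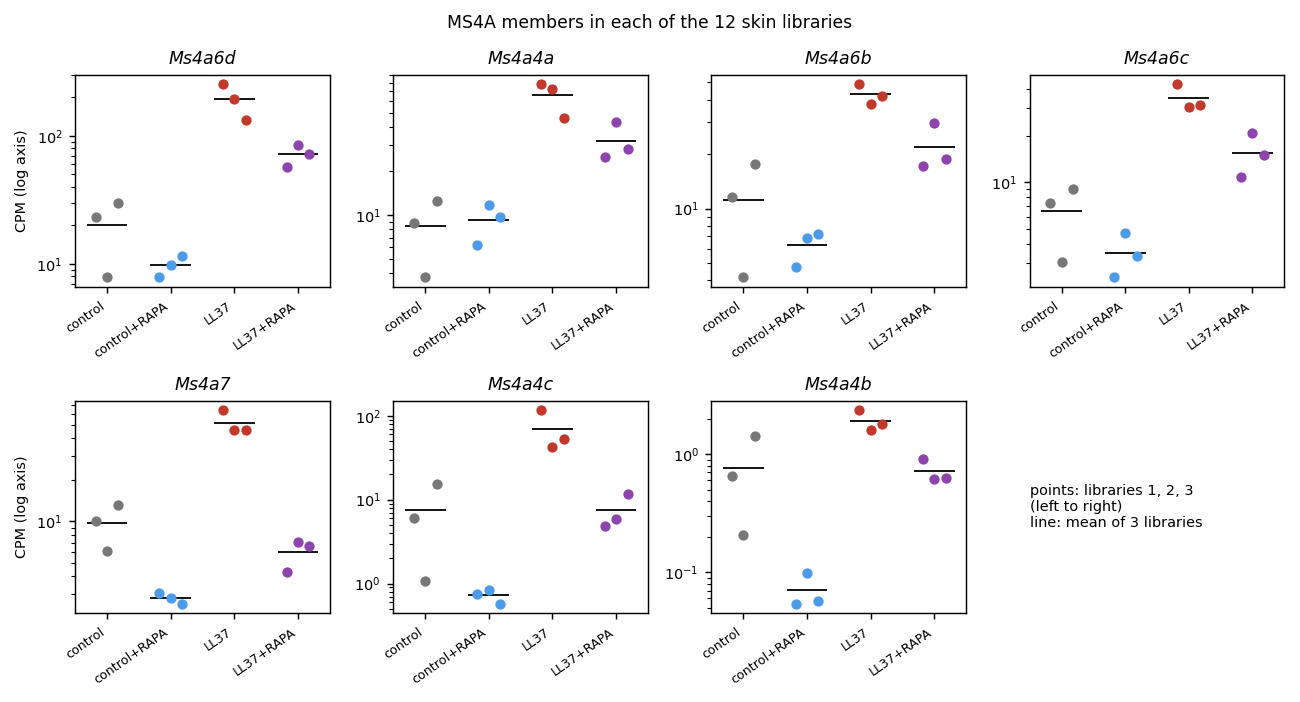
Level of each MS4A member in the 12 skin libraries, in CPM on a log axis, with 1 panel per gene, points for replicates 1 to 3 from left to right and a line at the mean of 3. In every panel the 3 LL37 points lie highest; the LL37 + RAPA points of Ms4a6d, Ms4a4a and Ms4a6c lie above all control points, while those of Ms4a7, Ms4a4c and Ms4a4b overlap the control points.

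Levels of different genes were compared per kilobase of exon, using the summed length of all annotated exons. In LL37 skin the order was Ms4a6d at 111 ± 34.8 CPM per kb (SD, n = 3), Ms4a4a at 78.3 ± 20.6, Ms4a4c at 40.1 ± 22.6, Ms4a6c at 17.0 ± 3.35, Ms4a7 at 11.6 ± 2.31, Ms4a6b at 9.61 ± 1.21 and Ms4a4b at 0.217 ± 0.0441. The ranges of Ms4a6d and Ms4a4a, of Ms4a4a and Ms4a4c, and of Ms4a7 and Ms4a6b overlapped between libraries, although within each of the 3 LL37 libraries the first of each pair was the higher. Ms4a4b has 8780 annotated exon bases but a coding sequence of 678, which lowers its value on this scale. Ms4a6b (4485 against 732) and Ms4a7 (4453 against 801) are lowered likewise, and Ms4a4a (836 against 708) least. In CPM without this scaling, Ms4a7 (mean 51.7) and Ms4a6b (43.1) lay above Ms4a6c (34.9) in LL37 skin. The order thus depends in part on annotated exon length. In control + RAPA skin Ms4a4a ranked first (11.0 ± 3.31 CPM per kb) and Ms4a6d next (5.61 ± 1.04), without overlap of their ranges, and Ms4a4c, at rank 3 in control skin, was at rank 6.

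The comparison of LL37 + RAPA with control + RAPA skin asks whether the peptide still changed the members when every mouse received RAPA. This pair of groups was not the comparison that chose the members, but its LL37 + RAPA libraries also enter LL37 against LL37 + RAPA. With edgeR's quasi-likelihood test across 17993 genes, Benjamini-Hochberg adjusted, and a call at adjusted p under 0.05 with an absolute log2 fold change above 1, the 6 members that passed the filter on low counts in every group were all called higher, beside 4.07% of all tested genes. Their median log2 fold change was 1.97, against -0.01 for all genes. All 6 had every LL37 + RAPA library above every control + RAPA library, which held for 19.5% of all tested genes. Ms4a4b is left out of these counts, since it was tested only through the groups where it is high.

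Among the myeloid members, Ms4a6d had a log2 fold change of 2.88 (SE 0.41, edgeR adjusted p = 0.00066), Ms4a6c 2.14 (SE 0.38, adjusted p = 0.00242) and Ms4a4a 1.80 (SE 0.39, adjusted p = 0.00727). Ms4a6b rose by 1.80 (SE 0.41, edgeR adjusted p = 0.00977). Ms4a4c rose by 3.34 on a low base (SE 0.86, edgeR adjusted p = 0.0182), and its call was lost when LL37 + RAPA replicate 3 or any 1 of the control + RAPA libraries was left out (log2 fold changes of 2.88 to 3.57 over all left-out libraries). Ms4a7 had the smallest change, 1.11 (SE 0.29, edgeR adjusted p = 0.0196), and its call was lost without LL37 + RAPA replicate 2 or 3 or without control + RAPA replicate 2 or 3 (0.96 to 1.3 over all left-out libraries). For Ms4a4b the summed counts gave a ratio of 9.94 (48 against 4 counts, 95% exact interval 3.64 to 38.0, counting error only), and no p is given for it here. When the reads of Ms4a4b, Ms4a4c and their relative Ms4a4d were summed as 1 gene, the log2 fold change was 0.93 (edgeR adjusted p = 0.237) and no longer called. In control + RAPA skin that sum was mostly Ms4a4d, at a mean of 5.66 CPM against 0.725 for Ms4a4c and 0.0702 for Ms4a4b. The summed value therefore cannot show whether reads of Ms4a4c were misassigned.

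LL37 + RAPA against control skin is the difference of the LL37 comparisons that chose the members, and is likewise given as a description with no p. Of the 7 members 3 were called higher, beside 2.15% of all tested genes. They were Ms4a4a (log2 fold change 1.94, SE 0.39), Ms4a6d (1.82, SE 0.39) and Ms4a6c (1.25, SE 0.36). The call of Ms4a6c was lost when control replicate 1 or 2, LL37 + RAPA replicate 2 or 3 or control + RAPA replicate 3 was left out (0.90 to 1.56 over all left-out libraries). Ms4a6b stood at 0.98 (SE 0.39) and was called without control replicate 3 (1.47). Ms4a7 stood at -0.70 (SE 0.27). Ms4a4b and Ms4a4c lay at -0.08 (SE 0.51) and -0.00 (SE 0.67), and without control replicate 3 at 0.74 and 1.06, uncalled in either case.

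LL37 against control skin is a comparison that chose the members and is given as a description. All 6 members that passed the filter in every group were called higher in LL37 skin, beside 8.73% of all tested genes. Ms4a4b, tested only through the groups where it is high, was also called. The fitted folds were 9.53 for Ms4a6d, 9.42 for Ms4a4c, 7.85 for Ms4a4a, 5.37 for Ms4a6c, 5.30 for Ms4a7, 3.87 for Ms4a6b and 2.51 for Ms4a4b. On the log2 scale the fitted value of Ms4a4c moved from 3.24 to 4.29 without control replicate 3, and to 2.71 without control replicate 2 or 2.67 without LL37 replicate 1, while Ms4a4b moved from 1.33 to 2.14 without control replicate 3. The call of Ms4a4b was not stable, being lost in 11 of 12 fits that left out 1 library (log2 fold changes of 0.86 to 2.14). Without LL37 replicate 3, the library with few neutrophil counts, the other 6 members were called, beside 4287 of all genes. They were also called without control replicate 2 (3405 of all genes) or LL37 replicate 1 (3006). Without control replicate 3 these 6 and Ms4a4b were called (3457 of all genes).

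Between LL37 and LL37 + RAPA skin, also a comparison used in the choice, 4 of 7 members were called higher in LL37 skin, beside 4.33% of all tested genes. Every LL37 library lay above every LL37 + RAPA library for all 6 members that passed the filter in every group, and for Ms4a4b. This held for 17.6% of all genes. The fitted folds split by size, with 9.42 for Ms4a4c and 8.61 for Ms4a7, and then 2.70 for Ms4a6d, 2.66 for Ms4a4b, 2.25 for Ms4a6c, 2.04 for Ms4a4a and 1.96 for Ms4a6b. With edgeR, Ms4a4a, Ms4a4b and Ms4a6b were the members not called. DESeq2 called 6 of 7, adding Ms4a4a and Ms4a4b, beside 1964 of all genes. So did edgeR on the compared groups only (1237 of all genes) and without control replicate 2 (1818) or control replicate 3 (1757). Without LL37 replicate 1, LL37 + RAPA replicate 1 or LL37 + RAPA replicate 3, Ms4a6c and Ms4a6d were no longer called, leaving Ms4a4c and Ms4a7, and without LL37 replicate 3 Ms4a4a was added.

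**Figure D2:**
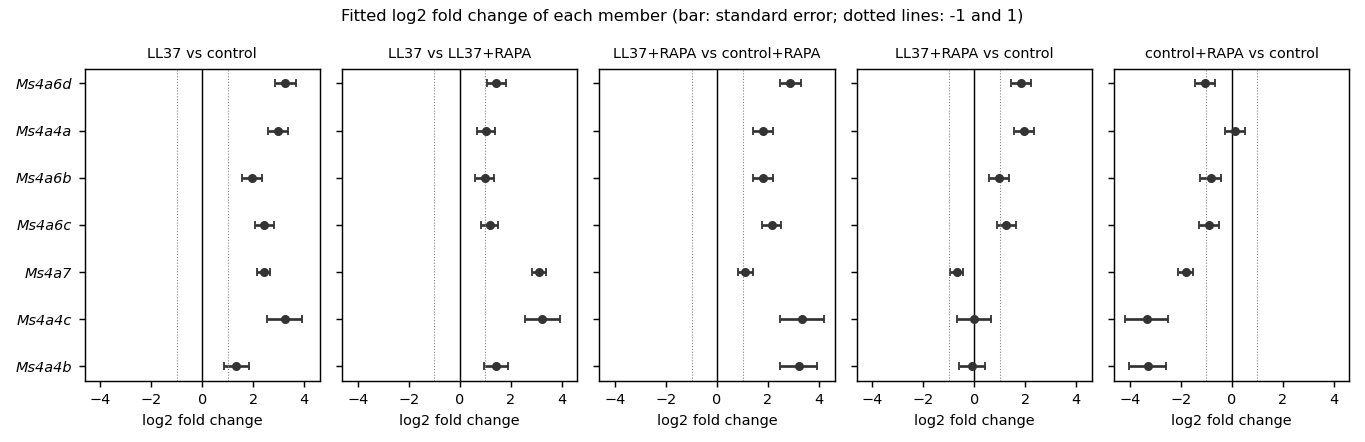
Fitted log2 fold change of each member in 5 comparisons (points, with bars for the standard error; dotted lines at -1 and 1). Ms4a7 and Ms4a4c are the members farthest to the right in LL37 against LL37 + RAPA, and with Ms4a4b farthest to the left in control + RAPA against control, where no member passed edgeR's adjusted test; the Ms4a4b points against control + RAPA skin rest on 4 counts in that group.

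RAPA in skin without LL37 was tested by control + RAPA against control, which shares its control libraries with the LL37 comparison. With edgeR 0 of 7 members were called, as were 0 of all 17993 genes (0.0%). An unadjusted edgeR p under 0.05 was held by 4 of the 6 members that passed the filter in every group. It was also held by 1556 of the 17993 genes. Ms4a7 had a log2 fold change of -1.81 (SE 0.29, edgeR adjusted p = 0.150), Ms4a4c -3.34 (SE 0.86, adjusted p = 0.386) and Ms4a6d -1.06 (SE 0.40, adjusted p = 0.510). For Ms4a4c the value was -2.29 without control replicate 3 and -3.88 without control replicate 2. Ms4a6c (-0.89) and Ms4a6b (-0.82) had values of the same sign, and Ms4a4a stood at 0.15. For Ms4a4b, control skin had 43 counts against 4, a ratio of 10.6 with a 95% exact interval of 3.84 to 40.5 for counting error only. Every control + RAPA library lay below every control library for Ms4a4c and Ms4a7, 2 of the 6 members that passed the filter in every group, and for Ms4a4b, which held for 7.42% of all tested genes.

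DESeq2, the other tool run, called Ms4a4c and Ms4a7 lower, with DESeq2 adjusted p = 4.49e-06 for Ms4a7 and 0.0162 for Ms4a4c. In all it called 51 genes, out of those with at least 1 count. Ms4a4b was also called, but rests on 4 counts in control + RAPA skin, and no p is given for it. In edgeR, Ms4a7 was called when control replicate 2 was left out (-2.08, adjusted p = 0.0141) and when low genes were kept (-1.83, adjusted p = 0.0101). The fitted log2 fold changes of edgeR and DESeq2 were -1.81 and -1.82 for Ms4a7 and -3.34 and -3.38 for Ms4a4c.

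The interaction term, the log2 change by LL37 under RAPA minus that without RAPA, addresses whether the peptide's effect differed with RAPA. It contains LL37 against control, so members are given here as a description as well. With edgeR 0 of 7 members were called, beside 2.38% of all tested genes called in either direction. The values were -1.3 for Ms4a7 (SE 0.39) and -1.17 for Ms4a4a (SE 0.54). Ms4a4b stood at 1.89 (SE 0.90), a fitted value that rests on the 4 counts of control + RAPA skin. The remaining values were -0.15 for Ms4a6b, -0.28 for Ms4a6c and -0.38 for Ms4a6d. Ms4a7 was called by DESeq2 (-1.29) and by edgeR without LL37 replicate 3 (-1.38). Ms4a4c stood at 0.11 with an SE of 1.02, and at -0.94 without control replicate 3 and -1.60 with the reads of its relatives summed. That sum was mostly Ms4a4d in control + RAPA skin.

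Since the libraries are bulk tissue, fewer cells of a type and less RNA per cell cannot be told apart, and markers of the cells that carry these proteins were read beside them. The summed CPM of 21 macrophage and monocyte genes was 990 to 1673 in control, 1030 to 1205 in control + RAPA, 2766 to 3631 in LL37 and 2282 to 3758 in LL37 + RAPA skin. Of these 21 genes, 10 were called higher in LL37 + RAPA than in control + RAPA skin and none lower. Csf1r, the receptor for the macrophage growth factor, stood at 138 CPM in LL37 + RAPA against 88.2 in control + RAPA skin as group means, Adgre1, which encodes F4/80, at 40.5 against 19.6, and Cd68 at 60.8 against 29.1. All 21 were detected in every library. The part of cell number in the members' values was not tested.

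Each member was therefore also expressed as a percentage of that macrophage and monocyte sum, with 14 exact tests in all, none of which can go below 0.1. From control + RAPA to LL37 + RAPA skin, the percentage was higher without overlap for Ms4a4c, Ms4a6b, Ms4a6c and Ms4a6d, 4 of the 6 members that passed the filter in every group, against 1.28% of all tested genes. That share is low by construction, since the sum itself rose from 1030 to 1205 CPM to 2282 to 3758 CPM. A gene at a steady level thus had a lower percentage. Ms4a6d went from 0.885 ± 0.106% to 2.57 ± 0.344% (SD, n = 3; exact permutation p = 0.1, two-sided, the smallest that 3 against 3 allows). Ms4a6c went from 0.320 ± 0.112% to 0.544 ± 0.0690% and Ms4a6b from 0.571 ± 0.102% to 0.770 ± 0.0225%, each with the same p by the exact test. Ms4a7 did not follow, at 0.256 ± 0.0428% and 0.215 ± 0.0460% (n = 3, exact permutation p = 0.3), nor did Ms4a4a, at 0.841 ± 0.257% and 1.13 ± 0.0339% (n = 3, exact permutation p = 0.2).

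In control + RAPA against control skin the percentage was lower without overlap for Ms4a4c and Ms4a7, 2 of the same 6 members, against 1.48% of all tested genes. Ms4a7 went from 0.697 ± 0.151% in control skin to 0.256 ± 0.0428% (n = 3, exact permutation p = 0.1). Ms4a4a, Ms4a6b, Ms4a6c and Ms4a6d overlapped, with exact permutation p of 0.3 to 0.6 (n = 3). As a description, Ms4a4c and Ms4a7 were 7.74-fold and 7.36-fold higher per macrophage sum in LL37 than in LL37 + RAPA skin, and the other 5 members 1.70-fold to 2.25-fold. One gene, the lysozyme Lyz2, made up 43.5% of the sum in LL37 + RAPA skin against 22.5% in LL37 skin. Without Lyz2 and Cd68 in the sum, the same values were 5.69-fold for Ms4a4c, 5.41-fold for Ms4a7 and 1.25-fold to 1.66-fold for the other 5.

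**Figure D3:**
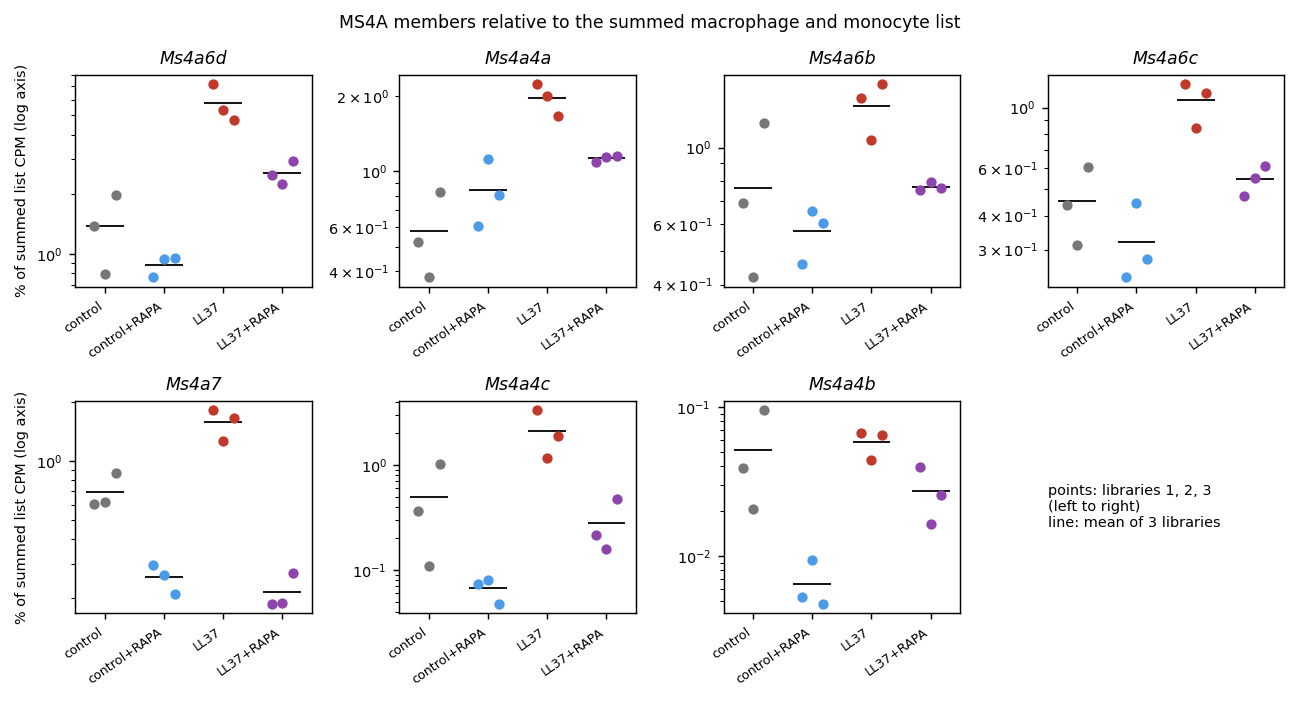
Each member as a percentage of the summed CPM of 21 macrophage and monocyte genes in the same library (log axis; points for replicates 1 to 3, line at the mean). Ms4a7 lies between 0.187% and 0.295% in both RAPA groups and higher in all libraries without RAPA, whereas Ms4a6d lies at 2.27% to 2.94% in LL37 + RAPA skin against 0.763% to 0.951% in control + RAPA skin.

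The summed CPM of 10 interferon response genes followed another order, at 98.5 to 309 in control, 57.0 to 77.5 in control + RAPA, 471 to 1490 in LL37 and 69.1 to 146 in LL37 + RAPA skin. Of its 9 tested genes, 9 were called higher in LL37 than in LL37 + RAPA skin and 0 in LL37 + RAPA than in control + RAPA skin, where 1 had an unadjusted p under 0.05. Control replicates 2 and 3 were lowest and highest for this sum, and LL37 replicate 1 was highest, as for all 7 members. The T and NK cell sum, described below, had the same libraries in these places, so the order is not particular to interferon genes. Isg15, an interferon-induced ubiquitin-like protein, averaged 11.2, 2.13, 102 and 5.55 CPM in control, control + RAPA, LL37 and LL37 + RAPA skin. The group means of Ms4a7, Ms4a4c and Ms4a4b had the same order. So had the T and NK cell sum, with medians of 38.9, 24.8, 54.5 and 28.4 CPM in these groups. This order of groups is thus not particular to interferon genes either. For Ms4a4c and Ms4a4b control and LL37 + RAPA skin were nearly level, at 7.464 against 7.456 and 0.758 against 0.716 CPM. Oas1a was at 0 counts in every library. The part of interferon signalling in the members' values was not tested.

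T and NK cell genes were read because Ms4a4b and Ms4a6b are known from T cells. Their sum over 19 genes was 33.2 to 41.3 CPM in control, 19.6 to 24.9 in control + RAPA, 50.3 to 60.03 in LL37 and 25.2 to 29.0 in LL37 + RAPA skin. Of 16 tested genes, 0 were called in LL37 + RAPA against control + RAPA skin with edgeR, and 0 had an unadjusted p under 0.05. The sums of those groups did not overlap, and 11 of the 16 genes had a log2 fold change above 0. Cd3e averaged 1.72 CPM in LL37 + RAPA against 1.89 in control + RAPA skin, Cd3d 1.00 against 1.07, and Cd3g 3.67 against 3.72, while Cd4 averaged 0.661 against 0.318. Cd8a was at 0 in 4 libraries and Klrb1c in 4. The part of T cell number was not tested.

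**Figure D4:**
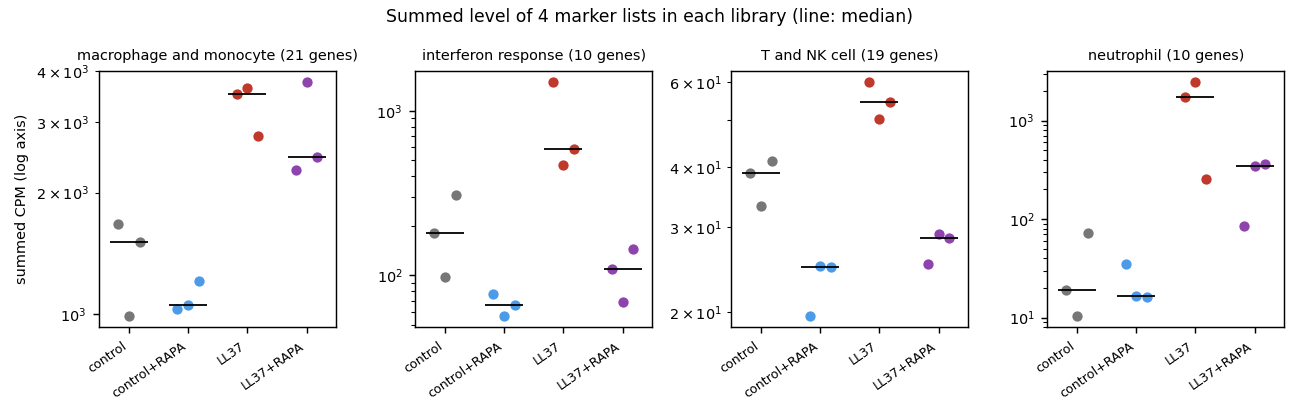
Summed CPM of 4 marker lists in each library (log axis; points for replicates 1 to 3, line at the median). The macrophage and monocyte sum is at least 2282 in all LL37 and LL37 + RAPA libraries, the interferon sum is at least 471 in LL37 libraries and at most 309 elsewhere, and the neutrophil sum of LL37 replicate 3 (252) lies far under those of the other LL37 libraries.

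Of the rest of the family, 12 further Ms4a genes and the distant relatives Tmem176a and Tmem176b were in the table, and 6 of these 14 passed the filter. CD20 (Ms4a1) reached at most 4 counts in any library, and Ms4a3 and Ms4a13 had 0 counts in all. Ms4a14, which lies beside Ms4a7, was called higher in LL37 than in control skin (log2 fold change 2.40, edgeR adjusted p = 0.000452) and than in LL37 + RAPA skin (2.38, adjusted p = 0.0021). It was not called in LL37 + RAPA against control + RAPA skin (0.62, adjusted p = 0.337). Ms4a8a was called higher in LL37 than in control skin (1.09, edgeR adjusted p = 0.0261) and in LL37 + RAPA than in control + RAPA skin (1.73, adjusted p = 0.00678). Tmem176a was called only in LL37 + RAPA against control skin (1.22, edgeR adjusted p = 0.00223). Ms4a4d, which lies between Ms4a6b and Ms4a6d and shares 87.9% of aligned coding bases with Ms4a4c, stayed between 2.61 and 6.32 CPM in all 12 libraries and was called in 0 comparisons, with a log2 fold change of -0.20 in LL37 against control skin (edgeR adjusted p = 0.619). The mast cell gene Ms4a2 was called in 0 comparisons as well.

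Across the 12 libraries the members were correlated with one another on the log2 CPM scale, from Pearson r = 0.72 between Ms4a4a and Ms4a7 to 0.99 between Ms4a6c and Ms4a6d. All points share 4 groups and the same normalisation, so these values are a description of the group pattern. The 3 genes most like each member outside the family were taken by the same r. For Ms4a4c they were Oas2 (0.99), Slfn8 (0.99) and Trim30a (0.98). For Ms4a7 they were the chemokine Ccl8 (0.98), Dtx3l (0.98) and Nmi (0.97). For Ms4a6d they were Slfn2, Fcer1g, the common gamma chain of Fc receptors, and Lcp2 (0.99 each). Ms4a6b and Ms4a6c were both closest to Il10ra, the interleukin-10 receptor chain (0.98 each), and then Lpxn (0.975 and 0.98). Next came Gng2 for Ms4a6b (0.975) and Ifnar2 for Ms4a6c (0.98). Ms4a4a was closest to Bst1 (0.98), Ralb (0.98) and Pla2g7 (0.98), and Ms4a4b to Trdv4 (0.96), Lgals3bp (0.96) and Gm45902 (0.96).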

How the data were processed

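Total RNA of flash-frozen mouse skin was made into libraries with an Illumina TruSeq kit and sequenced as 100-base paired reads. The authors deposited raw read counts per gene for 12 libraries. The submitters' processing notes list HISAT2 2.0.5, featureCounts 1.5.0-p3, StringTie 1.3.3b, DESeq2 1.16.1 and build mm10, while the study's methods name HTSeq for counting, so the counter is uncertain and the strand setting is not given in the sources used here. Either way, reads that fit several genes or both strands could have been dropped or assigned to 1 gene, which bears on Ms4a4b, Ms4a4c and Ms4a6c.

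Groups came from the treatment labels. From the counts, edgeR 4.0.16 in R 4.3.3 was run with all 12 libraries, TMM factors, filterByExpr by group (17993 of 52636 genes kept) and quasi-likelihood F-tests, Benjamini-Hochberg adjusted over all tested genes. Standard errors are the log2 fold change divided by the root of F. DESeq2 1.42.0 was an alternative. Scripts were tested on simulated data with known changes in 200 genes. Log2 CPM for correlations used a prior count of 2. Marker sums used TMM-normalised CPM, and exact permutation tests ran over the 20 splits of 3 against 3. Sequences were aligned with Biopython 1.88. Levels under 3 counts were treated as not detectable. Intervals cover counting error only. Libraries of 1 group differed beyond sampling noise, so none was counted as a duplicate.

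LL37 + RAPA against control and the interaction were planned as tests, and are printed without member p-values because both contain the comparisons that chose the members. The members, marker lists and tests were chosen with earlier results of these data known. Every member is named, other family genes are named where called (and Ms4a1, Ms4a2, Ms4a3, Ms4a4d and Ms4a13 after their values were seen), and for each member the 3 genes with the highest correlation are named. Other lists, B cell, mast cell, and dendritic and Langerhans cell genes, were computed as well. In LL37 + RAPA against control + RAPA skin, 1 of 2 tested B cell genes, 0 of 8 mast cell genes, 2 of 10 dendritic and Langerhans cell genes, 3 of 8 neutrophil genes and 2 of 7 skin tissue genes were called higher.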

Additional observations from a re-analysis of the deposited data

How the results depend on the processing

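The counts of members called (Ms4a4b included) in LL37 against control, LL37 + RAPA against control + RAPA and LL37 + RAPA against control stayed within 1.5 times under every alternative run: 6 to 7, 5 to 7 and 2 to 4. Over these runs 2368 to 7668, 1020 to 3338 and 743 to 2527 of all genes were called, most with no limit on the fold change. The fit with summed relatives counts 1 summed gene once for each member in it. For LL37 against LL37 + RAPA the count was 2 to 6 with 1 library left out, beside 1104 to 2727 of all genes. For control + RAPA against control it was 1 without a filter, 3 with DESeq2, and 0 to 1 with 1 library left out. Of all genes, 8, 51 and 0 to 7 were called in these runs. For the interaction it was 1 with DESeq2 and 0 to 1 with 1 library left out, beside 1012 and 2 to 1760 of all genes. Same-numbered libraries had residual correlations of -0.188 to 0.263, 4 of 18 above 0.1, and differently numbered ones -0.303 to 0.277. No pairing by number was visible, which cannot show that the samples were unpaired. With the replicate block the counts were 7, 3, 7, 2, 0 and 0 for LL37 against control, LL37 against LL37 + RAPA, LL37 + RAPA against control + RAPA, LL37 + RAPA against control, control + RAPA against control, and the interaction. In the same order, 3480, 1703, 1444, 1081, 0 and 199 of all genes were called. Uncalled values changed sign as follows, and the cause was not tested. In LL37 + RAPA against control, Ms4a4b was 0.0345 by library size and 0.016 with the block, and -0.54 to 0.74 with 1 library left out. Ms4a4c was there 0.12 by library size, 0.0126 without a filter, 0.0175 with 10 counts in every library and 0.25 with the block, and -0.52 to 1.06 with 1 library left out. Ms4a4a in control + RAPA against control ran from -0.23 to 0.54 with 1 library left out. In the interaction, Ms4a4c was -0.21 with the block, Ms4a4b and Ms4a4c summed with Ms4a4d were -1.60, and with 1 library left out Ms4a4c ran from -0.94 to 0.67, Ms4a6b from -0.63 to 0.27, Ms4a6c from -0.58 to 0.0884 and Ms4a6d from -0.74 to 0.0401. The log2 difference of the Ms4a7 percentage in LL37 + RAPA against control + RAPA was 0.0374 when Lyz2 and Cd68 were dropped from the macrophage list, and that of Ms4a6b in control + RAPA against control ran from -0.67 to 0.0707 with 1 library left out. Depth limits Ms4a4b most, at 1 to 43 counts per library.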
